A study of Mus musculus with 8 samples.

Results

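The genes described here are feedback targets of NODAL and BMP signalling in mouse embryonic stem cells (mESCs), followed in wild-type cells and in cells that lack the nuclear transporter Importin-13 (IPO13), with and without oxidative stress. They were chosen by symbol: Nodal, Lefty1, Lefty2, Smad7 and Skil for the NODAL and SMAD2 arm, and Bmp4, Id1, Id2 and Id3 for the BMP and SMAD1 arm. All 9 were found among the 23420 gene symbols counted, and all 9 were expressed and tested.

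The study sequenced mRNA from 4 groups of mESCs with 2 libraries each, to find genes whose response to stress depends on IPO13. The groups were IPO13+/+ untreated, IPO13+/+ treated, IPO13-/- untreated and IPO13-/- treated, where treatment was 125 µM H2O2 for 1 h and then 2 h of recovery in clean medium. All cells came from blastocysts of a 129 x C57BL/6 background and were grown without feeder cells, on gelatin, in medium with serum and LIF. The knockout is an established line, so a difference between the genotypes is a difference between the cultures of these lines, and effects of the lost gene and of the line cannot be told apart.

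Each library held between 60397877 and 73789079 counted reads. Ipo13, the targeted gene, averaged 69.3 and 70.9 CPM (counts scaled to the same library size) in the untreated and treated IPO13+/+ groups, and 25.5 and 25.4 CPM in the IPO13-/- groups. All 10 markers of pluripotent stem cells fixed for the check exceeded 1 CPM in every group, and their summed level ran from 6200 to 6460 CPM in IPO13-/- libraries and from 7140 to 7410 CPM in IPO13+/+ libraries. Markers within this list moved both ways between the untreated groups. In IPO13+/+ and IPO13-/- cells Dppa5a averaged 1940 and 1290 CPM, Tfcp2l1 1080 and 779 CPM, and Esrrb 970 and 803 CPM. Nanog averaged 527 and 569 CPM, Klf4 433 and 475 CPM, Utf1 277 and 331 CPM, and Sox2 421 and 420 CPM. The summed levels of markers of other cells were far lower. They ranged over the 8 libraries from 15.7 to 23.8 CPM for primitive endoderm, from 9.13 to 20 CPM for mesoderm and primitive streak, from 86.7 to 103 CPM for trophectoderm, from 20.9 to 30.6 CPM for neural ectoderm and from 6.3 to 9.32 CPM for fibroblasts. In bulk RNA, fewer cells of a type and less RNA per cell cannot be told apart. Nothing in the labels says that the libraries of a group came from separate cultures, so the p-values measure only the spread between these libraries, which may be technical.

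NODAL is a secreted ligand of the TGF-β family whose receptors phosphorylate SMAD2 and SMAD3. Its targets include its own gene, the LEFTY proteins that block it outside the cell, and SMAD7 and SKIL, which restrain SMAD signalling inside the cell. BMP4 acts through SMAD1 and SMAD5, whose classical targets are the ID genes. ID proteins bind E proteins and keep them off DNA, and in serum and LIF they help to hold mESCs undifferentiated.

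The ID genes and their ligand did not respond to stress in one direction, so the promoters of the BMP arm are shown side by side. Each is the 300 bases from 250 before to 50 after the RefSeq transcription start (GRCm38.p6), read 5′ to 3′ along the gene. RefSeq promoters were at hand for 4 of the 9 genes. Capitals mark every match, on either strand, to 3 motifs. These were GGCGCC, the palindrome bound by SMAD1 and SMAD5 with SMAD4, and GGGCGG, the SP1 box, which reads CCGCCC on the other strand. The last was CACGTG, a form of the E-box. Other forms of the E-box were not searched or marked. For Id2 and Id3 the RefSeq start lies inside a longer GENCODE gene model.
Id2, chr12:25096043-25096342, minus strand: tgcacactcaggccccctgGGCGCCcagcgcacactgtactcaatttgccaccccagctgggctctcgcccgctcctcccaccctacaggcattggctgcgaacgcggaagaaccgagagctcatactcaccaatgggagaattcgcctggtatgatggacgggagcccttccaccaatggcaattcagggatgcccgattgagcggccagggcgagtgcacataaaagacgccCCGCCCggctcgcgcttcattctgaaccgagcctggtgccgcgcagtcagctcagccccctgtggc
Id3, chr4:136143572-136143871, plus strand: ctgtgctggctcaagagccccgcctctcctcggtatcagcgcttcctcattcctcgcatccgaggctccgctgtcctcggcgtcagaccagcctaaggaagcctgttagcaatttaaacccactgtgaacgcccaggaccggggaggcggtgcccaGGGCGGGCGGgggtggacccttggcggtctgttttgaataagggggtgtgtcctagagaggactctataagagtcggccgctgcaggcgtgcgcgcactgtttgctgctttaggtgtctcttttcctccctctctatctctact
Bmp4, chr14:46390620-46390919, minus strand: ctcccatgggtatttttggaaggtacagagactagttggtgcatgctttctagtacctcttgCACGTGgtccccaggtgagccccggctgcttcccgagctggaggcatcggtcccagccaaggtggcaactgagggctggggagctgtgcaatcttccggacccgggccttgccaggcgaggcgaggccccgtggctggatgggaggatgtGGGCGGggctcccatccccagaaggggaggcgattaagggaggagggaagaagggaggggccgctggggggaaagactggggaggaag

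The Id2 window held 1 GGCGCC, from base -231 to -226 before the start, and 1 SP1 box, from -16 to -11. The Id3 window held 2 SP1 boxes that overlap each other, from -94 to -85, and no GGCGCC. The Bmp4 window held 1 CACGTG, from -188 to -183, and 1 SP1 box, from -38 to -33. Over all 32851 RefSeq mouse promoters of this length, 11.9% held GGCGCC, 35.7% held GGGCGG and 7.15% held CACGTG. The Nodal promoter (chr10:61417722-61418021, plus strand) held none of the 3. Other motifs searched were GTCTAGAC and CAGACA, SMAD-binding sequences found in 0.213% and 21% of promoters, and AATCCACA, a FOXH1 sequence found in 0.855%, and the 4 windows held none of them. A match describes the letters of the window only.

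The first comparison asked how the genes stood in untreated cells without IPO13. The genes that encode the extracellular NODAL inhibitors were the most reduced, Lefty1 by 4.19-fold and Lefty2 by 3.64-fold. The ligand itself, Nodal, was 1.41-fold lower, Id2 was 1.98-fold lower and Id1 1.39-fold lower, whereas Id3 was 1.39-fold higher and Bmp4 1.28-fold higher. Of the 9 genes 2 rose, 6 fell, and Smad7 did not pass the test. Passing means a Benjamini-Hochberg adjusted p (FDR) below 0.05 in edgeR's quasi-likelihood test over 19424 genes, and in this comparison 18.7% of all genes passed as higher and 19.4% as lower. Among the 11278 genes with an average above 1 on the log2 CPM scale, to which all 9 belong, the shares were 25% and 29.1%. The median of the log2 fold changes was -0.47 over the 9 genes and 0 over all genes tested. The stricter call of the study also asks for a 2-fold change. Lefty1 and Lefty2 met it as lower, as did 1.84% of all genes tested, and Id2 fell just short of it.

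**Figure D1:**
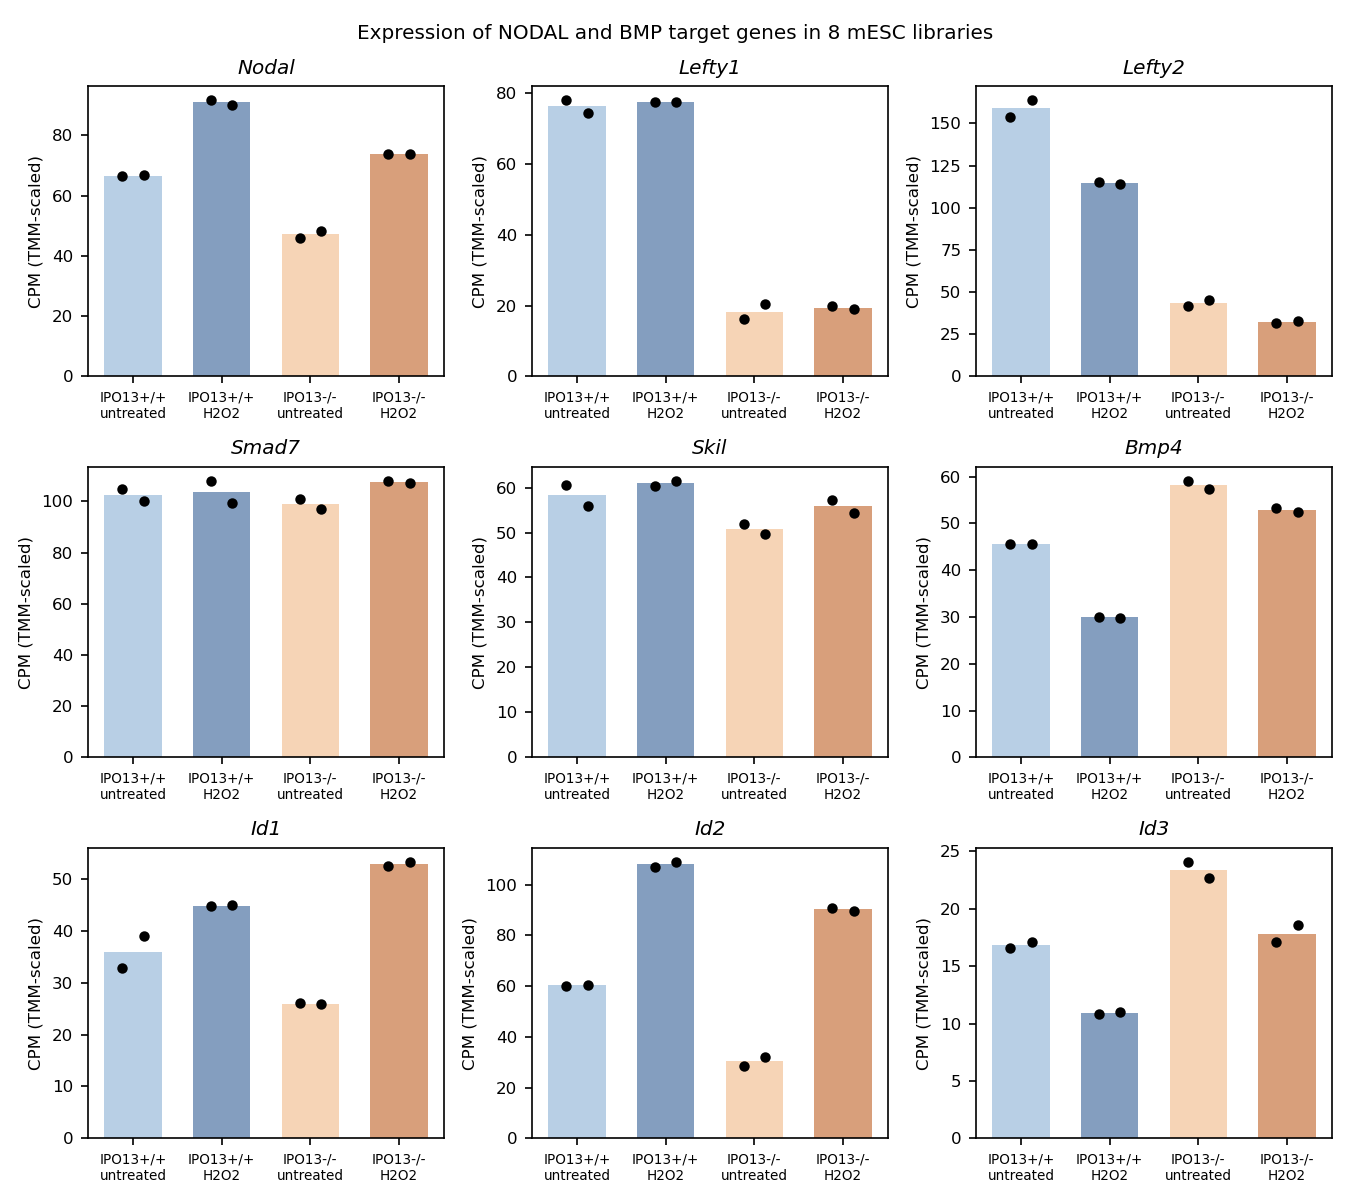
Expression of the 9 genes in CPM after TMM scaling (y axis, linear, from 0) in the 4 groups; bars are group means of 2 libraries and points are the libraries. Lefty1 and Lefty2 are low in all 4 IPO13-/- libraries, and Id1 and Id2 rise with H2O2 in both genotypes from a lower untreated level in IPO13-/- cells.

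Lefty1 (chr1:180935022-180938400) encodes a secreted antagonist of NODAL. Its level was 78.1 and 74.5 CPM in the untreated IPO13+/+ libraries and 77.4 and 77.6 CPM in the treated ones. In IPO13-/- cells it was 16.2 and 20.4 CPM untreated and 19.8 and 18.9 CPM treated. Every IPO13-/- library thus lay below every IPO13+/+ library, and within a genotype the levels overlapped between untreated and treated cells. The log2 fold change between genotypes was -2.07 ± 0.07 (SE; FDR = 2.5e-19, edgeR) in untreated cells and -2 ± 0.07 (FDR = 5.9e-19, edgeR) after H2O2. The stress response itself was 0.02 in IPO13+/+ cells (95% interval -0.10 to 0.14) and 0.09 in IPO13-/- cells (-0.06 to 0.24) on the log2 scale. Without the second untreated IPO13-/- library the latter became 0.28 and passed the test (FDR = 0.0091, edgeR), and without the first it was -0.07.

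Lefty2 (chr1:180893108-180899103), the neighbouring paralog of Lefty1 and also a NODAL antagonist, was reduced in the same libraries. It stood at 154 and 164 CPM in untreated and 115 and 114 CPM in treated IPO13+/+ cells, while the IPO13-/- libraries had 42 and 45.3 CPM before and 31.8 and 32.6 CPM after treatment. The 4 groups did not overlap. The genotype difference was -1.86 ± 0.05 (FDR = 1.9e-21, edgeR) in untreated and -1.83 ± 0.05 (FDR = 5.6e-21, edgeR) in treated cells on the log2 scale. Unlike for Lefty1, H2O2 lowered Lefty2 in both genotypes, by 1.39-fold in IPO13+/+ cells (FDR = 2.9e-09, edgeR) and by 1.35-fold in IPO13-/- cells (FDR = 8.3e-08, edgeR). The difference between these 2 responses was 0.04 on the log2 scale (95% interval -0.10 to 0.17). The ratio of Lefty2 to Lefty1 per kb of exon went from 1.33 and 1.48 without H2O2 to 1 and 0.989 with it in IPO13+/+ libraries, and from 1.75 and 1.49 to 1.08 and 1.16 in IPO13-/- libraries.

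The coding sequences of Lefty1 and Lefty2 were 91.8% identical over 1104 aligned bases (GENCODE M21). Of 1571 windows of 50 bases along the Lefty1 transcript, 281 occurred unchanged in the Lefty2 transcript, and of 1521 windows of 100 bases 73 did. Reads in those windows could have been dropped or split between the paralogs by the counting, so the separate levels are less certain than the reduction that they share. No window of 50 bases was shared between any pair of Id1, Id2 and Id3, whose coding sequences were 49.4% to 56.5% identical.

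The Lefty genes lie 41 kb apart on chromosome 1 (GRCm38), measured between gene midpoints, and expressed genes beside them were also lower in IPO13-/- cells. Those described lie within 0.1 Mb of Lefty1 and above 1 on the log2 CPM scale, and were chosen by position after their values were seen. Tmem63a, which encodes a membrane channel, had a log2 fold change of -1.01 ± 0.07 (FDR = 1.1e-11, edgeR) in untreated cells, and Ephx1, which encodes an epoxide hydrolase, had -0.87 ± 0.07 (FDR = 2.5e-10, edgeR). Sde2 had -0.22 ± 0.04 (FDR = 0.00025, edgeR). From 0.1 to 5 Mb away, 43 expressed genes had a median log2 fold change of -0.15 and a range of -0.72 to 0.39, and 1 of them was below -0.5. The median over the 592 expressed genes of chromosome 1 was -0.04. After H2O2 the genotype difference was -1.13 for Tmem63a, -0.69 for Ephx1 and -0.01 for Sde2. Whether a change of this stretch of the chromosome in the knockout line has a part in the Lefty levels was not tested.

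**Figure D2:**
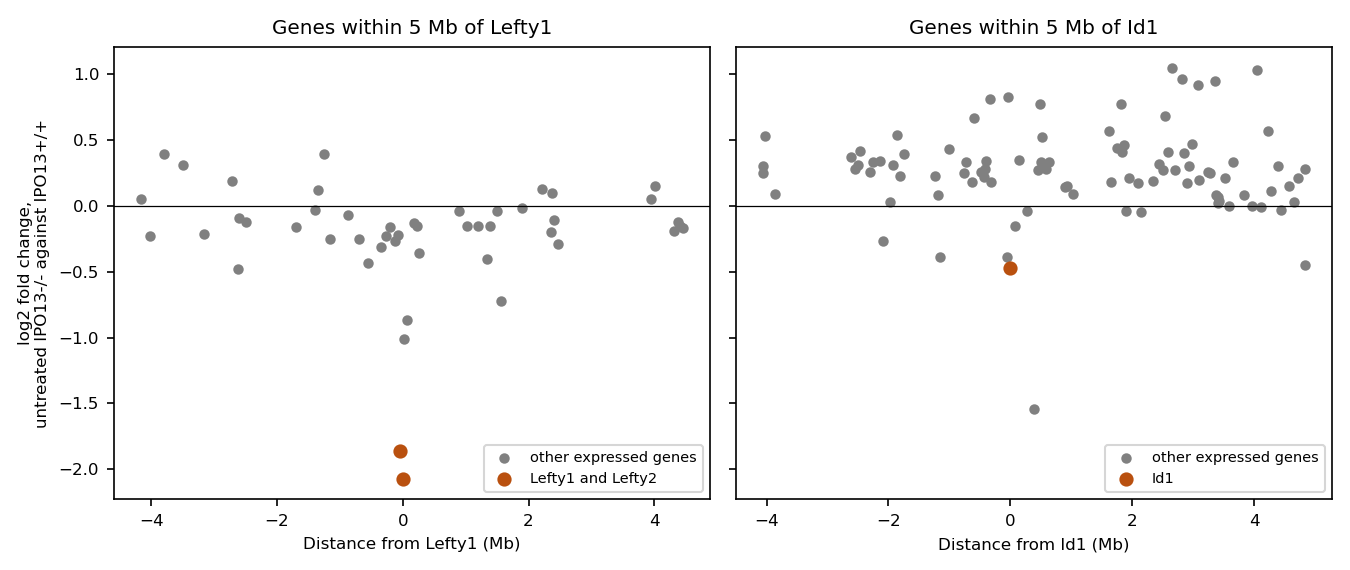
Log2 fold change of untreated IPO13-/- against IPO13+/+ cells (y axis) for expressed genes within 5 Mb of Lefty1 (left) and Id1 (right) against their distance in Mb (x axis); orange points are the genes described here. Around Lefty1 the neighbours Tmem63a and Ephx1 lie at -1.01 and -0.87, while around Id1 the median of the 93 neighbours is 0.27 and Id1 lies at -0.47.

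Nodal (chr10:61417972-61425338), the ligand, was lower without IPO13 and higher after stress. It stood at 66.4 and 66.8 CPM in untreated and 91.8 and 90.1 CPM in treated IPO13+/+ libraries, against 45.9 and 48.4 CPM in untreated and 73.9 and 73.9 CPM in treated IPO13-/- libraries. The levels therefore ran, from high to low, treated IPO13+/+, treated IPO13-/-, untreated IPO13+/+ and untreated IPO13-/-, with no overlap between neighbours. The genotype difference was -0.50 ± 0.04 (FDR = 8.2e-10, edgeR) untreated and -0.30 ± 0.04 (FDR = 3e-06, edgeR) treated on the log2 scale. H2O2 raised Nodal 1.37-fold in IPO13+/+ cells (FDR = 5.5e-09, edgeR) and 1.57-fold in IPO13-/- cells (FDR = 5.6e-12, edgeR). These responses differed by 0.20 ± 0.06 on the log2 scale, which did not pass the test (FDR = 0.088, edgeR), although it passed without the first untreated IPO13+/+ library (FDR = 0.046, edgeR). In untreated IPO13-/- against IPO13+/+ cells the median of chromosome 10 was -0.04, and the 10 expressed genes nearest to Nodal lay between -0.20 and 0.42. With H2O2 the same 10 genes lay between -0.21 and 0.44 in IPO13+/+ and between -0.24 and 0.39 in IPO13-/- cells.

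The Lefty genes together exceeded Nodal per kb of exon in wild-type cells, and no longer did so in treated knockout cells. The ratio of summed Lefty1 and Lefty2 to Nodal went from 3.27 and 3.29 without H2O2 to 2.01 and 2.04 with it in IPO13+/+ libraries. In IPO13-/- libraries it went from 1.16 and 1.25 to 0.666 and 0.66. The 4 groups did not overlap in this ratio, for which the smallest p of an exact two-sided permutation test between any pair of groups is 0.333.

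Smad7 (chr18:75367529-75395935) and Skil (chr3:31095058-31122577), the intracellular inhibitors, varied little. Smad7, which blocks TGF-β family receptors from within, stood between 97.1 and 108 CPM in all 8 libraries. Its genotype difference was -0.06 (95% interval -0.15 to 0.04) untreated and 0.05 (-0.04 to 0.15) treated on the log2 scale. Skil, a SMAD corepressor also known as SnoN, stood at 60.5 and 56 CPM in untreated IPO13+/+ libraries and at 51.9 and 49.6 CPM in untreated IPO13-/- libraries. That was a fall of 1.15-fold (FDR = 0.0016, edgeR), and the fall was 1.09-fold in treated cells (FDR = 0.039, edgeR), a call that held under 9 of 16 settings. Skil did not pass in untreated cells when libraries were scaled by their totals alone (-0.12, FDR = 0.055, edgeR) or without the second untreated IPO13-/- library (-0.16, FDR = 0.065, edgeR).

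The second question was how the genes responded to H2O2 in cells with IPO13. With treatment 3 genes rose (Nodal, Id1 and Id2), 3 fell (Lefty2, Bmp4 and Id3), and Lefty1, Smad7 and Skil did not pass the test. Over all genes tested, 11.5% passed as higher and 13.8% as lower, and among expressed genes 14.7% and 22.4%. The log2 response had a median of 0.02 for the 9 genes and 0 for all genes. None of the 9 changed 2-fold, as did 2.9% of all genes in either direction, while at an unadjusted p below 0.05 the same 6 genes stood out. Id3 and Bmp4 had the 42nd and the 48th lowest log2 fold change of the 11278 expressed genes.

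In IPO13-/- cells 5 genes rose with H2O2 (Nodal, Smad7, Skil, Id1 and Id2), 3 fell (Lefty2, Bmp4 and Id3) and Lefty1 did not pass the test. The background was 14.9% of all genes higher and 14.4% lower, and 21% and 22.1% of expressed genes. On the log2 scale the 9 genes had a median of 0.12, and all genes one of 0. Id1 and Id2 rose at least 2-fold, as did 2.52% of all genes, and had the 176th and the 66th highest log2 fold change of the 11278 expressed genes. The calls for Smad7 (0.12, FDR = 0.04, edgeR), Skil (0.14, FDR = 0.036, edgeR) and Bmp4 (-0.14, FDR = 0.017, edgeR) were weak, passing under 7, 8 and 12 of 16 settings. All 3 were lost without either untreated IPO13-/- library and without the first treated one, which left 5 or 6 of the 9 genes past the test.

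**Figure D3:**
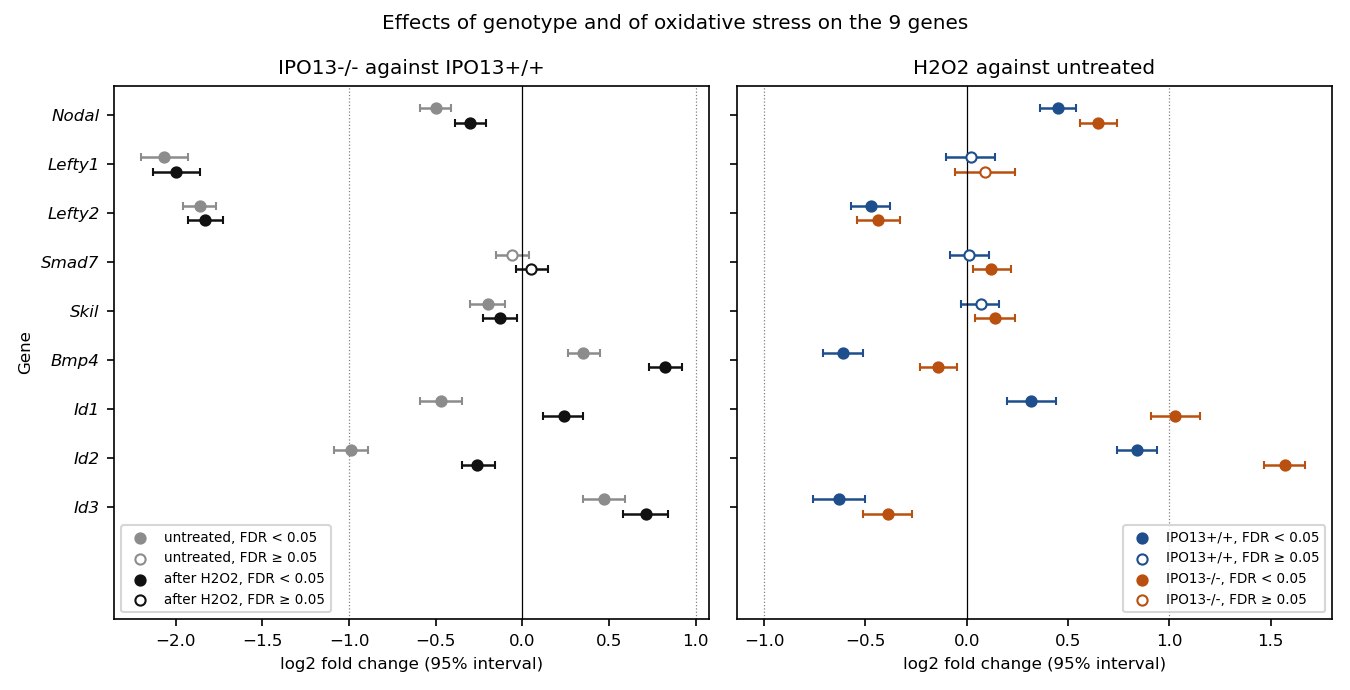
Log2 fold changes of the 9 genes with 95% intervals (x axis), for genotype in untreated and treated cells (left) and for H2O2 in each genotype (right); filled points passed at FDR below 0.05, open points did not, and dotted lines mark 2-fold. The Lefty genes lie near -2 for genotype under both conditions, and the intervals of the stress response do not overlap between the genotypes for Id1, Id2, Bmp4 and, narrowly, Nodal.

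Bmp4 (chr14:46383520-46390669), the ligand of the BMP arm, was higher without IPO13 and lost less of its level under stress there. It stood at 45.5 and 45.7 CPM in untreated and 30 and 29.8 CPM in treated IPO13+/+ libraries, and at 59.1 and 57.4 CPM in untreated and 53.3 and 52.4 CPM in treated IPO13-/- libraries. The groups did not overlap, and both IPO13-/- groups lay above both IPO13+/+ groups. H2O2 lowered Bmp4 1.53-fold in IPO13+/+ cells (FDR = 5.2e-11, edgeR) and 1.10-fold in IPO13-/- cells. The log2 responses differed by 0.47 ± 0.06 (FDR = 5.1e-05, edgeR interaction test). The genotype difference was accordingly 1.28-fold untreated (FDR = 3.3e-07, edgeR) and 1.77-fold treated (FDR = 8.6e-14, edgeR). Between genotypes, the 10 expressed genes nearest to Bmp4 had log2 fold changes from -0.4 to 1.05 untreated and from -0.36 to 1.28 treated. The median of chromosome 14 was -0.07 untreated and -0.05 treated. An annotated opposite-strand gene, Gm15222, overlaps 1764 bases of Bmp4 and was not analysed here, and whether the counting used strand is not given in the sources used here, so reads of the pair cannot be told apart.

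Id2 (chr12:25093799-25097140) and Id1 (chr2:152736251-152737410) encode inhibitors of DNA binding that pair with E proteins, and both started lower in IPO13-/- cells and rose more with H2O2. Id2 stood at 60.2 and 60.4 CPM in untreated and 107 and 109 CPM in treated IPO13+/+ libraries, and at 28.7 and 32.2 CPM in untreated and 90.8 and 89.8 CPM in treated IPO13-/- libraries. The rise was 1.79-fold in IPO13+/+ cells (FDR = 8e-14, edgeR) and 2.97-fold in IPO13-/- cells (FDR = 4.2e-19, edgeR). The treated IPO13-/- libraries thus came closer to the treated IPO13+/+ level, but stayed 1.2-fold below it (FDR = 5.9e-05, edgeR). The log2 responses differed by 0.73 ± 0.07 (FDR = 1.4e-07, edgeR interaction test).

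Id1 stood at 32.9 and 39 CPM in untreated and 44.7 and 44.9 CPM in treated IPO13+/+ libraries, and at 26 and 25.9 CPM in untreated and 52.5 and 53.3 CPM in treated IPO13-/- libraries. The order of the genotypes was turned by the treatment: Id1 was 1.39-fold lower in untreated (FDR = 3.2e-07, edgeR) and 1.18-fold higher in treated IPO13-/- cells (FDR = 0.0012, edgeR). Its rise with H2O2 was 1.25-fold in IPO13+/+ cells (FDR = 0.00011, edgeR) and 2.04-fold in IPO13-/- cells (FDR = 9.5e-14, edgeR). The log2 responses differed by 0.71 ± 0.08 (FDR = 5.3e-06, edgeR interaction test). The untreated IPO13+/+ libraries were the most spread of the 4 groups over all genes (a chi-square per gene of 15 between the pair, against 2.26 to 6.59), and without the first of them the log2 rise in IPO13+/+ cells was 0.20 instead of 0.32 and still passed (FDR = 0.0038, edgeR). Id1 lies on chromosome 2, whose 841 expressed genes had a median log2 fold change of 0.27 between untreated genotypes and 0.30 between treated ones, against a median of -0.02 over all expressed genes in untreated cells. With H2O2 the median of chromosome 2 moved by -0.02 in the wild type and by 0.01 in the knockout. The 10 expressed genes nearest to Id1 spread widely, from -1.54 to 0.83 between untreated and from -1.45 to 0.77 between treated genotypes. With H2O2 they lay between -0.22 and 1.06 in IPO13+/+ and between -0.34 and 1.26 in IPO13-/- cells. Neither the part of the chromosome-wide genotype difference nor that of the neighbourhood in the Id1 levels was tested.

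Id3 (chr4:136143497-136145755) moved against Id1 and Id2. It stood at 16.6 and 17.1 CPM in untreated and 10.8 and 11 CPM in treated IPO13+/+ libraries, and at 24.1 and 22.7 CPM in untreated and 17.1 and 18.6 CPM in treated IPO13-/- libraries. It was 1.39-fold higher in untreated (FDR = 2.1e-07, edgeR) and 1.63-fold higher in treated IPO13-/- cells (FDR = 7.8e-10, edgeR). H2O2 lowered it 1.55-fold in IPO13+/+ cells (FDR = 1e-08, edgeR) and 1.31-fold in IPO13-/- cells (FDR = 6e-06, edgeR). The log2 responses differed by 0.24 (95% interval 0.06 to 0.41), which did not pass the test (FDR = 0.16, edgeR). Treated IPO13-/- and untreated IPO13+/+ libraries had neighbouring levels that touched at 17.1 CPM. Between genotypes, the 10 expressed genes nearest to Id3 had log2 fold changes from -0.52 to 1.42 untreated and from -0.71 to 1.26 treated. The median of chromosome 4 was -0.05 untreated and -0.01 treated. Ipo13, the targeted gene, lies on the same chromosome (chr4:117894486-117914999). Whether the position of Id3 has a part in its levels was not tested.

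The balance among the ID genes therefore shifted with both genotype and stress. Id2 per kb of exon was 2.66 and 2.59 times Id3 in untreated IPO13+/+ libraries and 7.26 and 7.26 times Id3 in treated ones. In IPO13-/- libraries the ratio was 0.877 and 1.04 untreated and 3.9 and 3.55 treated. The ratio of Id1 to Id3 per kb was 3.05 and 3.51 against 6.37 and 6.31 in IPO13+/+ cells, and 1.67 and 1.76 against 4.74 and 4.43 in IPO13-/- cells.

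In treated cells, 8 of the 9 genes passed between genotypes, with 3 higher without IPO13 (Bmp4, Id1 and Id3), 5 lower (Nodal, Lefty1, Lefty2, Skil and Id2) and Smad7 not past the test. The count was 7 without Skil under the settings in which its call was lost. All genes tested passed as higher in 19.1% and as lower in 17.5% of cases, and expressed genes in 26.8% and 24.4%. The 9 genes had a median of -0.13 on the log2 scale, and all genes a median of 0. Lefty1 and Lefty2 again met the 2-fold call as lower, as did 1.98% of all genes tested. The test of the difference between the 2 stress responses passed for 3 of the 9 genes, Bmp4, Id1 and Id2, each with the higher log2 response in IPO13-/- cells. With TMM scaling the difference was above 0 for all 9 genes, and with library totals it was -0.03 for Lefty2 and 0 for Lefty1 and Skil. With TMM scaling its median was 0.2 over the 9 genes, 0.02 over all genes tested and 0.03 over expressed genes. Over all genes the difference passed as higher in IPO13-/- cells for 2.01% and as lower for 0.705%. Among expressed genes the shares were 3.32% and 1.06%. Id2 and Id1 had the 22nd and the 27th highest such difference among 11278 expressed genes. The stress and genotype comparisons share their libraries, so that the values of a gene in them are not independent.

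The rest of the pathways was described from lists of 83 other genes, of which 82 were tested. In untreated cells 13 (15.9%) were higher and 18 (22%) lower without IPO13, against 18.7% and 19.4% of all genes tested, and in treated cells 16 (19.5%) and 15 (18.3%), against 19.1% and 17.5%. H2O2 raised 16 (19.5%) and lowered 15 (18.3%) in IPO13+/+ cells, against 11.5% and 13.8%, and raised 21 (25.6%) and lowered 15 (18.3%) in IPO13-/- cells, against 14.9% and 14.4%. Counts by list are of few genes each and stand against the same shares. Over the 82 genes together, the median on the log2 scale lay between -0.04 and 0.03 in the 4 comparisons. The medians of single lists ran wider, from -0.21 for NODAL and activin ligands and processing to 0.32 for BMP transducers, both with H2O2 in IPO13+/+ cells.

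**Figure D4:**
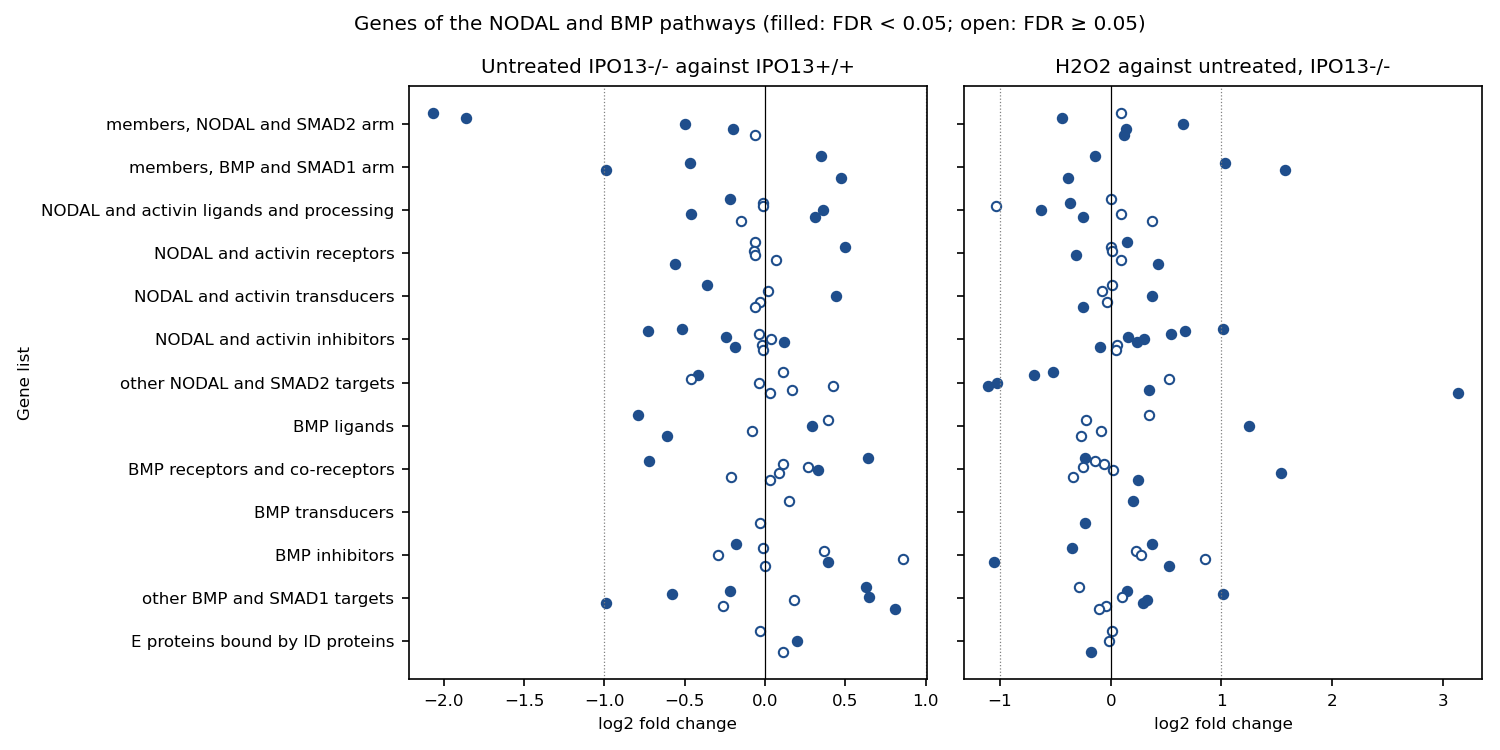
Log2 fold changes (x axis) of the pathway genes by list (y axis) for untreated IPO13-/- against IPO13+/+ cells (left) and H2O2 against untreated IPO13-/- cells (right), for genes averaging above -2 on the log2 CPM scale; filled points passed at FDR below 0.05, open points did not, and dotted lines mark 2-fold. The lists outside the 9 genes spread to both sides of 0, with Id4 the lowest of these on the left at -0.99 and Wnt3 the highest on the right at 3.14.

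Among 9 tested ligand and processing genes of the NODAL and activin arm, 2 were higher and 2 lower in untreated IPO13-/- cells. Pcsk6, a convertase that cleaves the NODAL precursor, stood at 88.3 and 88.6 CPM in untreated IPO13+/+ and 64.2 and 64.2 CPM in untreated IPO13-/- libraries, a log2 fold change of -0.46 (FDR = 2.1e-09, edgeR). Inhbb, which encodes an activin and inhibin subunit, was higher by 0.36 in untreated IPO13-/- cells, and H2O2 lowered it by 0.23 on the log2 scale in IPO13+/+ and by 0.63 in IPO13-/- cells (interaction -0.40, FDR = 0.0014, edgeR). Tgfb1, a TGF-β ligand, was higher in IPO13-/- cells, by 0.31 untreated and 0.51 treated. Tgfb2, another, which stayed between 0.805 and 1.73 CPM, rose by 0.72 with H2O2 in IPO13+/+ cells. Inha, an inhibin subunit that stayed between 0.124 and 0.396 CPM, had -1.09 with H2O2 in IPO13+/+ cells and passed under 2 of 16 settings.

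Of 8 receptor genes, 1 was higher and 2 were lower in untreated IPO13-/- cells. Acvr2a, a type II activin receptor that also serves NODAL, was higher by 0.50 untreated (FDR = 4.1e-07, edgeR) and by 0.46 treated. It lies on chromosome 2, whose expressed genes had medians of 0.27 untreated and 0.3 treated. The part of this chromosome-wide difference in the Acvr2a levels was not tested. Tgfbr2, the type II TGF-β receptor, which stayed between 1.1 and 1.74 CPM, was lower in untreated IPO13-/- cells by a log2 fold change of -0.56. Tdgf1, the NODAL co-receptor also called Cripto, was the most abundant of the pathway genes named here, at 920 and 979 CPM in untreated IPO13+/+ libraries. It did not pass between genotypes and fell with H2O2 by 0.36 on the log2 scale in IPO13+/+ and by 0.31 in IPO13-/- cells. Cfc1, its relative, stayed between 0.0463 and 0.246 CPM, and its difference of -1.42 in untreated cells passed under 7 of 16 settings.

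Of 5 transducers, 1 was higher and 1 lower in untreated IPO13-/- cells. Smad3, which carries the signal to the nucleus beside SMAD2, rose from 13.7 and 14.1 CPM to 21.2 and 20.6 CPM with H2O2 in IPO13+/+ cells and was higher by 0.44 in untreated IPO13-/- cells (FDR = 7.8e-07, edgeR). Foxh1, the DNA-binding partner of SMAD2 at Nodal and Lefty genes, had a log2 fold change of -0.36 in untreated (FDR = 5.2e-05, edgeR) and -0.28 in treated IPO13-/- cells. Of 10 inhibitors, 1 was higher and 4 were lower. Fst, which encodes the activin trap follistatin, stood at 7.2 and 6.99 CPM in untreated IPO13+/+ and 4.42 and 4.12 CPM in untreated IPO13-/- libraries, a change of -0.73 (FDR = 3.8e-08, edgeR), and rose with H2O2 in both genotypes. Dact2, which promotes the breakdown of NODAL receptors, was at 75.5 and 75.2 CPM in untreated and 96.6 and 90.9 CPM in treated IPO13+/+ libraries, and at 52.2 and 53.1 CPM in untreated and 107 and 105 CPM in treated IPO13-/- libraries (interaction 0.69, FDR = 8.1e-08, edgeR).

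Among other NODAL and SMAD2 targets, Eomes, a mesendoderm T-box gene, had a log2 fold change of -0.42 in untreated (FDR = 1.7e-05, edgeR) and -0.55 in treated IPO13-/- cells, and fell with H2O2 in both genotypes. Wnt3, which acts with NODAL in the primitive streak, rose with H2O2 from 0.224 and 0.285 CPM to 2.22 and 2.45 CPM in IPO13+/+ libraries and from 0.224 and 0.306 CPM to 1.96 and 2.68 CPM in IPO13-/- libraries. Its log2 fold changes were 3.18 and 3.14. Gsc, an organiser gene that stayed between 0.382 and 1.11 CPM, had -1.05 and -1.03 with H2O2 in the 2 genotypes. Mixl1, a primitive streak gene of at most 0.515 CPM, had -1.11 with H2O2 in IPO13-/- cells.

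Of 7 other BMP ligand genes, 1 was higher and 2 were lower in untreated IPO13-/- cells. Bmp7 did not follow Bmp4: it rose with H2O2 from 2.62 and 2.6 CPM to 5.56 and 5.51 CPM in IPO13+/+ libraries and from 3.26 and 3.12 CPM to 7.49 and 7.76 CPM in IPO13-/- libraries. Those were log2 fold changes of 1.08 (FDR = 3.3e-10, edgeR) and 1.25 (FDR = 3.1e-12, edgeR). Bmp8b was lower in IPO13-/- cells, by a log2 fold change of -0.61 untreated and -0.74 treated. Of 8 receptor genes, 2 were higher and 1 lower. Eng, the co-receptor endoglin, rose from 36 and 32.1 CPM to 88.2 and 85.2 CPM with H2O2 in IPO13+/+ libraries, and from 36.8 and 35.5 CPM to 106 and 105 CPM in IPO13-/- libraries. Acvr1, a type I BMP receptor also called ALK2, was higher by 0.64 in untreated IPO13-/- cells, and Acvrl1, or ALK1, had -0.72. Acvr1 also lies on chromosome 2, whose expressed genes had a median of 0.27 in that comparison.

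None of the 3 BMP transducer genes passed between untreated genotypes by edgeR's quasi-likelihood test. Only Smad1 had an unadjusted p under 0.05 there, with a log2 fold change of 0.15, and it passed under 6 of 16 settings. Smad1 rose with H2O2 by 0.32 in IPO13+/+ and by 0.20 in IPO13-/- cells, whereas Smad5 fell by 0.23 on the log2 scale in IPO13-/- cells. Among 9 BMP inhibitors, Smad6, which restrains BMP receptors and SMAD1, stood at 3.86 and 4.05 CPM in untreated and 3.79 and 3.13 CPM in treated IPO13+/+ libraries, and at 5.2 and 5.17 CPM in untreated and 2.49 and 2.52 CPM in treated IPO13-/- libraries. It fell in IPO13-/- cells, with a log2 fold change of -1.05 ± 0.10 (FDR = 4.5e-09, edgeR) and an interaction of -0.85 ± 0.14 (FDR = 0.00062, edgeR). Its direction was opposite to that of Id1 and Id2. Bambi, a pseudoreceptor, had an interaction of 0.36 that passed under 6 of 15 settings, Twsg1, a BMP-binding protein gene, rose with H2O2 by 0.44 and 0.53 in the 2 genotypes, and Nog, or noggin, stayed between 0.0894 and 0.695 CPM and was higher by 1.77 in treated IPO13-/- cells.

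Of 10 other BMP and SMAD1 targets, 3 were higher and 3 lower in untreated IPO13-/- cells. Id4, the remaining ID gene, stood at 11.9 and 10.9 CPM in untreated IPO13+/+ and 5.68 and 5.75 CPM in untreated IPO13-/- libraries. Its genotype difference was -0.99 ± 0.07 (FDR = 1.6e-11, edgeR), the same size as that of Id2, and it persisted after H2O2 at -0.85 ± 0.07 (FDR = 2.3e-10, edgeR). Gata2, a transcription factor gene, had log2 responses to H2O2 of 0.33 in IPO13+/+ and 1.01 in IPO13-/- cells (interaction 0.68, FDR = 0.0012, edgeR). Gata3 was higher in IPO13-/- cells, by 0.65 untreated and 0.95 treated. It too lies on chromosome 2, with medians of 0.27 untreated and 0.3 treated. Dlx3, between 0.551 and 1.18 CPM, had an interaction of -1.02 that passed under 5 of 15 settings. Of the 3 E protein genes, Tcf3 was higher in IPO13-/- cells, by 0.20 untreated (FDR = 0.00062, edgeR) and 0.27 treated, and Tcf4 had -0.18 with H2O2 in both genotypes.

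The genes whose pattern over the 8 libraries was most like that of Nodal were Homer3, Nsmaf and Grhl3. Likeness was the root mean square difference of log2 CPM after centring each gene on its mean, over 11277 other expressed genes, and it was 0.038, 0.048 and 0.055. For Id1 the nearest were Dact2 (0.076), Nab2 (0.098), a corepressor of EGR factors, and Cd24a (0.099), a surface glycoprotein gene. Dact2 was thus both a pathway gene and the closest match to Id1. In group means, Nab2 ran 47.7, 53.5, 35.5 and 68.3 CPM in untreated and treated IPO13+/+ and untreated and treated IPO13-/- cells, against 35.9, 44.8, 26 and 52.9 CPM for Id1. Homer3, a scaffold protein gene, ran 25.5, 36.4, 18.5 and 28.1 CPM, against 66.6, 90.9, 47.1 and 73.9 CPM for Nodal.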

How the data were processed

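The authors deposited, for each of the 8 libraries, raw read counts per gene symbol and CPM (counts scaled to library totals). The labels' processing notes name bcl2fastq, STAR 2.3.1, HTSeq, limma and mm10 (GRCm38); whether strand was used in counting is not given in the sources used here. The kit was Illumina TruSeq mRNA. The deposited CPM equalled CPM recomputed from the counts to within 0.0005 and was not used further. Rows that share a symbol (4) were kept apart, and none is a member.

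Counts of all 8 libraries, for 19424 genes (those counted once or more somewhere, a minimum of 1), were fitted with edgeR 4.0.16 (R 4.3.3; TMM factors 0.9697 to 1.028; 1 coefficient per group; quasi-likelihood test; Benjamini-Hochberg FDR below 0.05). The study used limma-voom; edgeR suits raw counts and limma 3.58.1 and DESeq2 1.42.0 were alternatives. The biological coefficient of variation was 3.36%. CPM in the text is TMM-scaled, and 3 counts, the floor of a library, were 0.04066 to 0.04967 CPM; this covers counting error only. Replicates of a group differed beyond counting noise (chi-square per gene 2.26 to 15), and each was counted as 1 replicate. Such a spread may be technical and does not show that the libraries came from separate cultures.

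The 9 members and all gene lists were chosen with earlier results of these data known. Outside the members, genes were named where they passed with a 2-fold change in any pairwise comparison, passed the interaction test, or had the largest passing change of a list at a mean of at least 1 CPM, and the 3 genes most like Nodal and Id1 were named. Symbols matched GENCODE M21 for 21759 of 23420, which gave coordinates and exon lengths. Promoters came from RefSeq (GRCm38.p6). Paralog identity was taken from GENCODE coding sequences, since proteins were not used here. The edgeR fit was tested on simulated data. Results of some genes are not reported here, and those genes are not plotted.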

Additional observations from a re-analysis of the deposited data

Results flagged for a closer look

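The response to H2O2 differed between IPO13-/- and IPO13+/+ cells, by edgeR's interaction test, for 3 genes. The log2 response was higher in IPO13-/- cells by 0.47 for Bmp4 (FDR = 5.1e-05), by 0.71 for Id1 (FDR = 5.3e-06) and by 0.73 for Id2 (FDR = 1.4e-07). For Bmp4 this was a smaller fall, and for Id1 and Id2 a larger rise from a lower untreated level. All 3 passed under each of the 15 settings in which the interaction could be fitted, with ranges of 0.40 to 0.47, 0.58 to 0.83 and 0.63 to 0.81.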

How the results depend on the processing

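With 2 libraries per group, each call rests on a spread shared across genes and libraries. Leaving out each library in turn gave 5 to 8 of the 9 genes past the test for H2O2 in IPO13-/- cells (8 with all libraries), 7 to 8 for each genotype comparison (8), 6 to 6 for H2O2 in IPO13+/+ cells (6) and 3 to 4 for the interaction (3). Leaving one out assumes that the lone sample varies like the other groups. The genotype differences of Nodal, Lefty1, Lefty2, Bmp4, Id1, Id2 and Id3 kept their direction and passed under each of 16 settings, which were limma-voom, DESeq2, relative log expression factors, library totals, filterByExpr, no filter, a replicate block, only the libraries compared, and each library left out. Skil passed in 14 of 16 settings untreated and 9 of 16 treated.

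Values near 0 changed sign. With library totals in place of TMM, the genotype difference of Smad7 in untreated cells was 0.02, and the interactions of Lefty1, Lefty2 and Skil were 0, -0.03 and 0. With a library left out, the response to H2O2 ranged from -0.01 to 0.06 for Lefty1 and from -0.05 to 0.07 for Smad7 in IPO13+/+ cells, and from -0.07 to 0.28 for Lefty1 in IPO13-/- cells; the genotype difference of Smad7 in treated cells ranged from -0.01 to 0.12, and the interactions from -0.12 to 0.23 for Lefty1 and from -0.04 to 0.09 for Lefty2. None of these passed except the 0.28. The cause was not tested. Library totals moved the median of expressed genes in untreated cells from -0.02 to 0.06.

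Replicate numbers were not used as pairs, since no label ties them to a shared culture or day. Same-numbered deviations correlated between -0.05 and 0.44, above 0.1 for 3 of 6 pairs of groups. A replicate block left 8, 6, 8 and 8 genes past the test in the 4 pairwise comparisons and gave 4 instead of 3 for the interaction, by adding Nodal (0.20, FDR = 0.02, edgeR). Counts over all genes moved more. The interaction had 390 genes higher and 137 lower, and over the settings 62 to 885 and 11 to 469, with 885 and 406 under the block. Genes lower with H2O2 numbered 2679 (1229 to 3296) in IPO13+/+ and 2803 (1340 to 3545) in IPO13-/- cells, and those lower in untreated IPO13-/- cells 3777 (2426 to 4162). Genes higher with H2O2 in IPO13-/- cells numbered 2901 (1864 to 3254).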
